A study of Mus musculus with 15 samples.

Results

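The EGF receptor family and its ligands were followed as 10 genes, 3 receptors (Egfr, Erbb2 and Erbb3) and 7 ligands (Egf, Tgfa, Areg, Ereg, Hbegf, Btc and Nrg1). They were taken by name from the 49585 genes listed in the count tables, whatever their values, and were read in all 15 pancreas RNA-Seq libraries. The study asked how HPK1, a kinase encoded by Map4k1, and its kinase-dead form M46 act in pancreatitis and in pancreatic lesions. All mice were C57BL/6, and each library held RNA pooled from 3 mice.

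Transgenic HPK1 or M46 was switched on in acinar cells by Bac-cre, a tamoxifen-inducible Cre under the elastase I promoter, so that by design the transgene was active in acinar cells. The MC experiment compared 3 HPK1-M46 transgenic libraries (MC) with 3 libraries labelled B control, both from cerulein-treated mice of 2 months. The HC experiment compared 3 libraries labelled HPK1/B (HC) with 2 labelled WT, both from cerulein-treated mice of 4 months. If B stands for Bac-cre, HC differed from WT by Cre as well as by HPK1, and these cannot be told apart. Cerulein overstimulates acinar cells and causes pancreatitis. The third experiment compared 2 KMC libraries (9 months) with 2 KC libraries (15 months). The paper describes both as samples of pancreatic ductal adenocarcinoma, and their tumour content was not tested here. KC and KMC mice shared Bac-cre and a background allele, and KMC mice carried M46 besides. Whether the sequenced KC and KMC mice received cerulein is not given in the sources used here.

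EGFR binds EGF, TGF-alpha and amphiregulin, while HB-EGF, betacellulin and epiregulin bind both EGFR and ERBB4. ERBB2 has no known ligand of its own, and ERBB3, which binds neuregulin, has a weak kinase and signals through its partners, so receptors work in pairs. The ligands are made as membrane proteins that ADAM proteases release, and in the pancreas EGFR signalling upstream of ERK is known to drive acinar-to-ductal metaplasia, in which acinar cells take on duct cell features.

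The receptor genes lie at chr11:16752203-16918158 (Egfr, + strand), chr11:98412470-98437716 (Erbb2, + strand) and chr10:128567523-128589652 (Erbb3, - strand) in GRCm38. Egf is at chr3:129677565-129755316 (- strand), Tgfa at chr6:86195223-86275719 (+ strand) and Nrg1 at chr8:31814551-32884029 (- strand). Ereg (chr5:91074622-91093646), Areg (chr5:91139599-91148432) and Btc (chr5:91357261-91402994) lie together on chromosome 5, with Btc on the - strand and the other two on the + strand. The 100 bases before the start of Areg and of Btc are shown because these neighbours had unlike levels in the same libraries. Capitals mark TGACGTCA, the cyclic AMP response element, and TATAAA, the TATA box (RefSeq, GRCm38.p6, 5′ to 3′ on the gene's strand).
Areg, chr5:91139499-91139598 (+): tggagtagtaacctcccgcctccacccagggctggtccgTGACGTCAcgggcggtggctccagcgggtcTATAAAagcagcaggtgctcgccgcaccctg
Btc, chr5:91402995-91403094 (-): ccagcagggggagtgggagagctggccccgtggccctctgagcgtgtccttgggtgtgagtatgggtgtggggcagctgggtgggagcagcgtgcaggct
In Areg the response element ran from base -61 to -54 and the TATA box from -31 to -26 before the start. Promoter sequence was found for 6 of the 10 genes (Egf, Areg, Btc, Tgfa, Egfr and Erbb2). Both strands of the window from 250 bases before to 50 after the start were also searched for TGANTCA (AP-1) and TTCNNNGAA (STAT), and the other 5 genes held none of the 4 motifs. Of 32851 promoters, 1.79% held TGACGTCA, 13.6% TATAAA, 7.81% TGANTCA and 8.3% TTCNNNGAA, and a match describes letters only.

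Levels are given as CPM, counts per 1000000 library counts, scaled by the TMM method within a table. Total counts were 29766575 to 34144236 in the MC experiment, 31791225 to 37829604 in the HC experiment and 30208416 to 38745907 for KC and KMC, where a gene with no count could still be at up to 0.0357 CPM (3 counts) in KMC 2, where TMM shrinks the values most, and up to 0.204 CPM in KC 1. Map4k1 was higher in MC than in its controls (log2 fold change 1.13) and in KMC than in KC (2.99), but lower in the libraries labelled HC than in theirs (-0.99), against the label, and passed the test in none (quasi-likelihood test of edgeR, Benjamini-Hochberg adjusted p = 0.11, 0.0796 and 0.145). The leukocyte gene Ptprc moved in the same directions (log2 fold change 1.66 in MC, 2.78 in KMC and -0.95 in HC). The part of leukocytes in the Map4k1 values was not tested. The library labelled HC 3 had RNA of a male (0.761 CPM of Xist, 48.4 of Ddx3y), while the other 4 libraries of that experiment had 579 to 929 CPM of Xist and no count of Ddx3y. KMC libraries had Xist at 306 to 406 CPM with no count of Ddx3y, whereas KC libraries had Ddx3y at 10.7 and 17.3 CPM, so genotype, sex and age cannot be told apart there. Acinar markers took 36.5 to 55.7% of counts in the MC experiment, 5.75 to 8.98% in the HC experiment, which is low for pancreas, 59.9 to 68.6% in KC, and 48.5 and 24.6% in KMC 1 and KMC 2. Library KMC 2 stood apart from KMC 1 also in fibroblast markers (6252 against 2138 summed CPM).

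**Figure D1:**
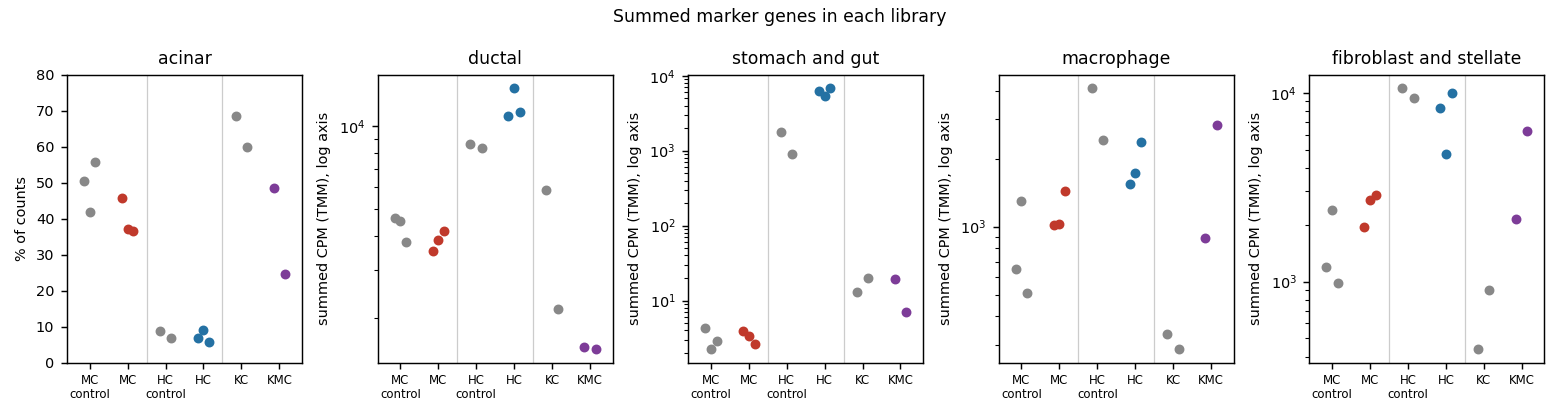
Cell type markers in each of the 15 libraries, acinar markers as percent of counts and the others as summed CPM (TMM, log axis), 1 point per library, with grey points for controls and KC. Acinar markers are lowest in the HC experiment, stomach and gut markers are high in that experiment (907 to 6934 CPM), and macrophage and fibroblast markers are higher in both KMC than in both KC libraries.

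In the HC experiment the receptor Erbb3 was higher in all 3 libraries labelled HC, as were Erbb2, Tgfa and Btc, while Egf and Nrg1 were lower. Fold changes of these genes were below 2-fold, and 0 of 10 family genes were differentially expressed by edgeR, a call that needs an adjusted p no larger than 0.05 with a log2 fold change of 1 or more in size and that was reached by 0.565% of the 18407 genes tested. For 6 of the 10 genes the groups were apart, as they were for 33.5% of all genes tested. At an unadjusted p under 0.05 there were 4 family genes higher (8.39% of all genes) and 1 lower (7.47%). In bulk RNA, more cells of a type and more RNA per cell cannot be told apart, and p-values measure only the spread between pooled libraries.

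Erbb3, the neuregulin receptor, was at 349, 342 and 306 CPM in HC 1 to 3 against 202 and 211 CPM in the 2 controls. All HC libraries were above both controls, with a log2 fold change of 0.69 (SE 0.118) and an adjusted p of 0.0642 in edgeR's test. By DESeq2, also Benjamini-Hochberg adjusted, p was 1.04e-05, the smallest among the family genes. Erbb2, the receptor without a ligand, was at 124, 117 and 133 CPM in HC against 92.5 and 88.0 CPM in controls. Again the groups did not overlap, and the log2 fold change was 0.47 (SE 0.102, adjusted p = 0.113 by edgeR and 0.0116 by DESeq2). Egfr, the receptor of most of these ligands, was at 147, 123 and 110 CPM in HC against 132 and 116 CPM in controls. Its groups overlapped, with a log2 fold change of 0.03 (SE 0.148, 95% interval -0.32 to 0.39).

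Tgfa, whose product is a ligand of EGFR, was at 58.9, 67.1 and 54.3 CPM in HC against 40.7 and 43.5 CPM in controls. The lowest HC library was above the highest control, and the log2 fold change was 0.51 (SE 0.119, adjusted p = 0.126 by edgeR and 0.0226 by DESeq2). Btc, the betacellulin gene, was at 54.5, 52.5 and 49.2 CPM in HC against 38.1 and 38.3 CPM in controls. Its controls were nearly equal and the groups apart, at a log2 fold change of 0.45 (SE 0.0948, adjusted p = 0.105 by edgeR and 0.0165 by DESeq2). DESeq2 thus passed Erbb3, Erbb2, Tgfa and Btc on its adjusted p, where 4.56% of all genes passed in the higher direction, and none of the 4 reached a log2 fold change of 1. Without the male library HC 3, DESeq2 passed Erbb3 alone of the 10 genes, at an adjusted p of 0.00177 and a log2 fold change of 0.73, against 0.269 for Erbb2, 0.0813 for Tgfa and 0.166 for Btc.

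Areg, the amphiregulin gene, was at 35.0, 38.4 and 26.3 CPM in HC and at 22.4 and 27.0 CPM in controls. Ereg, its neighbour and the epiregulin gene, was at 8.39, 8.80 and 4.92 CPM in HC and at 5.57 and 7.07 CPM in controls. Both genes overlapped between groups only through HC 3, their lowest HC library. Without it the log2 fold change went from 0.43 to 0.56 for Areg and from 0.22 to 0.43 for Ereg, with adjusted p of 0.277 and 0.59 by edgeR. Hbegf, the gene of heparin-binding EGF, was at 44.8, 37.3 and 37.3 CPM in HC and at 38.0 and 28.6 CPM in controls, which overlapped (log2 fold change 0.26, SE 0.16). Without control 1 this value was 0.48, and without control 2 it was 0.07.

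Egf was at 3.07, 3.37 and 3.49 CPM in HC against 4.30 and 4.66 CPM in controls, lower in all HC libraries (log2 fold change -0.44, SE 0.205, adjusted p = 0.366 by edgeR). Nrg1, whose product binds ERBB3, was at 0.975, 1.43 and 1.40 CPM in HC against 2.55 and 1.92 CPM in controls. It was thus lower in every HC library while its receptor gene was higher, with a log2 fold change of -0.82 (SE 0.303, unadjusted p = 0.0333, adjusted p = 0.272 by edgeR). The median log2 fold change of the 10 genes was 0.34, beside -0.001 over all genes tested.

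Markers of other tissue moved with these genes in the HC experiment. Ductal markers summed to 10890 to 13830 CPM in HC and to 8325 to 8637 CPM in controls, and 10 of 12 were higher, 6 at an unadjusted p under 0.05. The duct keratin Krt19 was at 1500, 2150 and 1780 CPM in HC against 959 and 896 CPM in controls. Stomach and gut markers summed to 5299 to 6934 CPM in HC against 907 to 1802 CPM in controls, with 6 of 6 tested members higher, among them Gkn1, a gastrokine of the stomach lining, at a log2 fold change of 2.43 (SE 0.363). Macrophage markers were at 1540 to 2375 CPM in HC against 2417 to 4136 CPM in controls, and none of 8 was higher. The part of these shifts in the levels of Erbb3, Erbb2, Tgfa, Btc and Nrg1 was not tested.

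**Figure D2:**
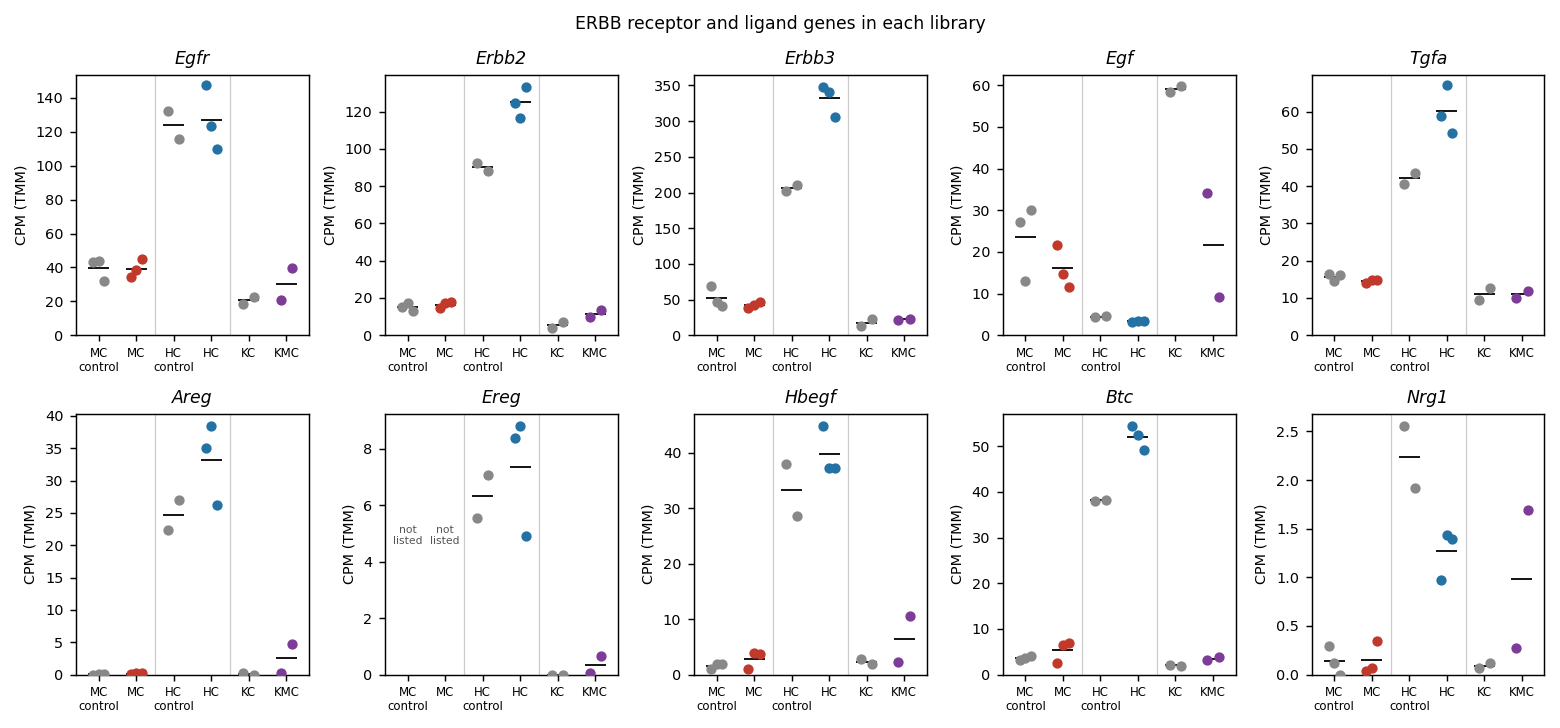
CPM (scaled by TMM within each table) of the 10 genes in each library, 1 point per library with a line at the group mean, grey for controls and KC, and grey lines between the 3 experiments, which were scaled separately. Erbb2, Erbb3, Tgfa and Btc lie above both controls in all 3 HC libraries, and Areg, Ereg, Hbegf and Nrg1 are higher in KMC 2 than in KMC 1.

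In the MC experiment the family was measured at levels that the groups shared. All 7 genes tested overlapped between MC and controls, beside 20.7% of all genes tested that did not, and 0 were differentially expressed by edgeR, as were 0% of the 13902 genes tested, while DESeq2 called 3.28% of all genes and none of the family. None of the 7 had an unadjusted p under 0.05, against 14.7% of all genes. Ereg is not listed in this table, and Areg and Nrg1 were too low to be tested.

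Egfr was at 34.3, 38.5 and 44.8 CPM in MC and at 43.4, 44.1 and 32.3 CPM in controls, and its log2 fold change was -0.03 (SE 0.16, 95% interval -0.40 to 0.35). Erbb2 was at 14.4, 17.1 and 17.8 CPM in MC and at 15.4, 17.3 and 12.9 CPM in controls (log2 fold change 0.11, SE 0.153). For both receptors the MC range lay across that of the controls. Erbb3 was at 38.0, 42.0 and 46.7 CPM in MC and at 68.7, 47.0 and 41.5 CPM in controls (log2 fold change -0.31, SE 0.196, adjusted p = 0.455 by edgeR). Control 1 stood above the other libraries, and without it the value was -0.07.

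Egf was at 21.7, 14.7 and 11.6 CPM in MC and at 27.2, 13.1 and 30.1 CPM in controls, a log2 fold change of -0.55 (SE 0.342, adjusted p = 0.447 by edgeR). Its control 2 lay within the MC range, and without that control the value was -0.84 (adjusted p = 0.083). Leaving out control 3 gave -0.32 (adjusted p = 0.78) and leaving out MC 3 gave -0.37, so single libraries decide the size. Tgfa had the narrowest range, 13.9, 14.7 and 14.9 CPM in MC and 16.5, 14.5 and 16.2 CPM in controls (log2 fold change -0.12, SE 0.115).

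Hbegf was at 0.980, 3.90 and 3.70 CPM in MC and at 0.992, 1.82 and 1.84 CPM in controls. Btc was at 2.6, 6.37 and 6.99 CPM in MC and at 3.21, 3.57 and 3.95 CPM in controls. For both ligands MC 2 and MC 3 were above all controls and MC 1 below them, so the log2 fold changes of 0.90 (SE 0.518) for Hbegf and 0.58 (SE 0.355) for Btc had adjusted p of 0.424 and 0.442 by edgeR. Without MC 1 they were 1.31 and 0.91, with adjusted p of 0.163 and 0.119. Areg had 2, 7 and 7 counts in MC and 0, 1 and 1 counts in controls, a separation that rests on few reads and was not tested. Nrg1 had 1, 3 and 14 counts in MC and 9, 4 and 0 counts in controls, which overlapped. In this experiment leukocyte markers summed to 184 to 277 CPM in MC against 54.7 to 157 CPM in controls, T cell markers to 3.93 to 5.93 CPM against 1.16 to 1.43 CPM, and B cell markers to 2.37 to 52.7 CPM against 0.899 to 1.82 CPM. Adipocyte markers summed to 48.2 to 126 CPM in MC against 31.2 to 37.7 CPM in controls, with 5 of 5 higher at an unadjusted p under 0.05, and acinar markers took 36.5 to 45.8% of counts against 41.9 to 55.7%. The part of these shifts in the ligand levels was not tested.

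**Figure D3:**
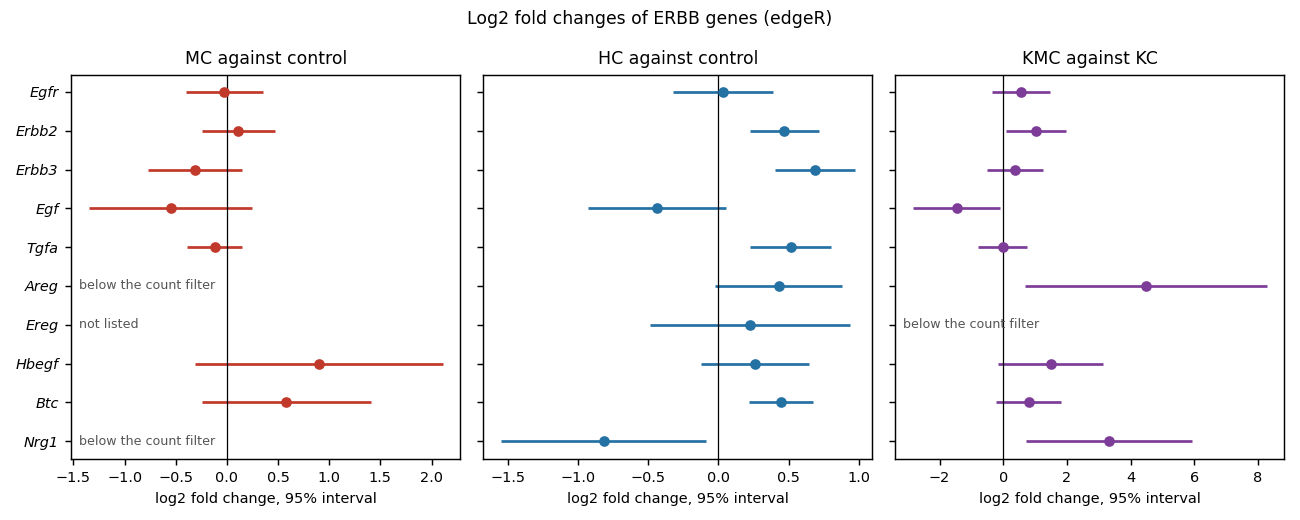
Log2 fold changes of the 10 genes (edgeR, points) with 95% intervals (bars) in MC against control, HC against control and KMC against KC, each panel with its own horizontal axis. Genes that could not be tested are written as such, and intervals are widest for Areg and Nrg1 in KMC.

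Erbb3 and Tgfa had opposite signs in the MC and HC experiments under TMM scaling. The difference of the effects was tested for all genes in 1 edgeR model over both tables, each effect taken against its own controls. The MC effect minus the HC effect was -1.0 for Erbb3 (SE 0.255, unadjusted p = 0.00247, adjusted p = 0.0638) and -0.64 for Tgfa (SE 0.167, unadjusted p = 0.00283, adjusted p = 0.0664), on the log2 scale. Neither passed in edgeR's test, in which 2.18% of 14884 genes were called. DESeq2 gave adjusted p of 0.00514 for Erbb3 and 0.00909 for Tgfa, below 0.05 as for 9.86% of genes, and without HC 3 they were 0.01 and 0.0063. Without MC control 2, edgeR's adjusted p was 0.0254 for Erbb3 and 0.0243 for Tgfa, and scaled by library size alone it was 0.457 and 0.674. The value for Erbb2 was -0.36 (SE 0.179, adjusted p = 0.28), and for Hbegf 0.65 (SE 0.584, adjusted p = 0.554). Egfr (-0.07, 95% interval -0.58 to 0.44), Egf (-0.12) and Btc (0.13) had adjusted p from 0.877 to 0.899. Areg and Nrg1 were too low to be tested in the MC experiment, so their differences are not read as results, and Ereg had none. Experiment, age, transgene and the label of the controls (B control or WT) differ together here, so they cannot be told apart.

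In KMC against KC under TMM scaling, the ligand genes Areg, Ereg, Hbegf and Nrg1 were highest in KMC 2 and far lower in KMC 1. Erbb2 and Btc were higher in both KMC libraries, and Egf was lower in both. None of the 9 genes tested was differentially expressed by edgeR, a call reached by 0.0191% of 15733 genes, and none by DESeq2, which called 13.8%. At an unadjusted p under 0.05 there were 3 higher (Erbb2, Areg and Nrg1, with 16.1% of all genes) and 1 lower (Egf, with 9.48%). Areg and Nrg1 passed the count filter only through the KMC libraries, where they were high, so their p-values cannot be read as support. Groups of 2 did not overlap for 5 of the 9 tested genes, beside 65.3% of all genes.

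Egfr was at 20.8 and 39.4 CPM in KMC and at 18.6 and 22.5 CPM in KC (log2 fold change 0.55, SE 0.392). Its groups overlapped, and without KMC 2 the value was 0.03. Erbb2 was at 9.75 and 13.5 CPM in KMC against 4.08 and 7.24 CPM in KC, a log2 fold change of 1.03 (SE 0.403, unadjusted p = 0.036, adjusted p = 0.171 by edgeR). Both KMC libraries were above both KC libraries, and without KMC 2 the value was 0.79 (adjusted p = 0.712). Erbb3 was at 21.8 and 23.0 CPM in KMC and at 12.3 and 22.3 CPM in KC (log2 fold change 0.37, SE 0.371), where KC 2 was at the KMC level.

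Egf was at 34.0 and 9.08 CPM in KMC against 58.3 and 59.7 CPM in KC, lower in both KMC libraries and lowest in KMC 2. Its log2 fold change was -1.46 (SE 0.586, unadjusted p = 0.0401, adjusted p = 0.178 by edgeR), and without KMC 2 it was -0.78 (adjusted p = 0.724). Acinar markers moved the same way, with 0 of 27 tested members higher and a median of -2.01 on the log2 scale. Tgfa was at 10 and 11.9 CPM in KMC and at 9.53 and 12.7 CPM in KC, which overlapped (log2 fold change -0.02, SE 0.328, 95% interval -0.78 to 0.75).

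Areg had 12 and 395 counts in KMC (0.295 and 4.71 CPM) and 4 and 0 counts in KC (0.272 and 0 CPM). The ratio of the summed counts, scaled to library size and TMM factor, was 33.1 (95% counting interval 12.8 to 122), but nearly all reads came from KMC 2, and KMC 1 was close to KC 1. Its fitted log2 fold change of 4.48 (SE 1.62, adjusted p = 0.154 by edgeR) was 1.36 without KMC 2 (adjusted p = 0.859). Ereg had 2 and 55 counts in KMC and 0 in both KC libraries, at least 6.18-fold higher when KC is set to the floor of 3 counts over the group, and was too low to be tested. Nrg1 had 11 and 142 counts in KMC (0.270 and 1.69 CPM) and 1 and 3 counts in KC (0.0681 and 0.116 CPM), a ratio of 12.4 (95% counting interval 4.76 to 46.2). Both KMC libraries were above both KC libraries, with a log2 fold change of 3.33 (SE 1.12, unadjusted p = 0.0193, adjusted p = 0.139 by edgeR), which was 1.46 without KMC 2 (adjusted p = 0.83). These counting intervals leave out the spread between libraries.

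Hbegf was at 2.31 and 10.6 CPM in KMC and at 2.79 and 1.86 CPM in KC. Only KMC 2 was above both KC libraries, so the log2 fold change was 1.49 (SE 0.703, adjusted p = 0.225 by edgeR) with KMC 2 and 0.02 without it. Btc was at 3.10 and 3.91 CPM in KMC against 2.04 and 1.97 CPM in KC, a log2 fold change of 0.80 (SE 0.438, adjusted p = 0.275 by edgeR) that was 0.64 without KMC 2. Macrophage markers summed to 894 and 2830 CPM in KMC against 285 to 333 CPM in KC, with 8 of 8 higher at an unadjusted p under 0.05, and fibroblast markers to 2138 and 6252 CPM against 437 to 898 CPM. Without KMC 1, where edgeR called 13.6% of all genes tested, Areg, Hbegf and Nrg1 were called higher and Egf lower. Ereg was called there as well. However, Areg, Ereg and Nrg1 passed the count filter there only through KMC 2, where they were high, so their calls have no weight. Without KMC 2 no family gene was called. The part of these cell types in the KMC values was not tested.

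The direction of several of these genes depended on scaling. With scaling by total size alone, all genes in KMC had a median of 1.47 on the log2 scale instead of 0.03, and 6 family genes were then called higher (Egfr, Erbb2, Areg, Hbegf, Btc and Nrg1), as 30% of all genes were called. With acinar genes left out of the library size, that median was 0.64. Under each scaling, Areg and Nrg1 passed the count filter only through the KMC libraries. Areg (6.29), Nrg1 (4.94) and Hbegf (3.22) stayed above the median shift under library size, whereas Egf (-0.25) was below it under every scaling. Tgfa was at -0.02 under TMM and at 1.43 under library size, near the shift of all genes. Overlap of the KMC and KC libraries also depended on scaling. By total counts, Egf was at 42.2 and 19.7 CPM in KMC and at 28.4 and 45.5 CPM in KC, which overlapped. Egfr, Erbb3, Tgfa and Hbegf were then higher in both KMC than in both KC libraries, and Erbb2 and Btc stayed so. In MC against control the same change of scaling moved the median of all genes from -0.02 to 0.30, and Egfr (0.28), Erbb3 (0.01) and Tgfa (0.22) then had a positive sign. In the HC experiment the values of the 10 genes moved by little between scalings, and Egfr, at 0.03 under TMM, was at -0.003 without acinar genes.

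**Figure D4:**
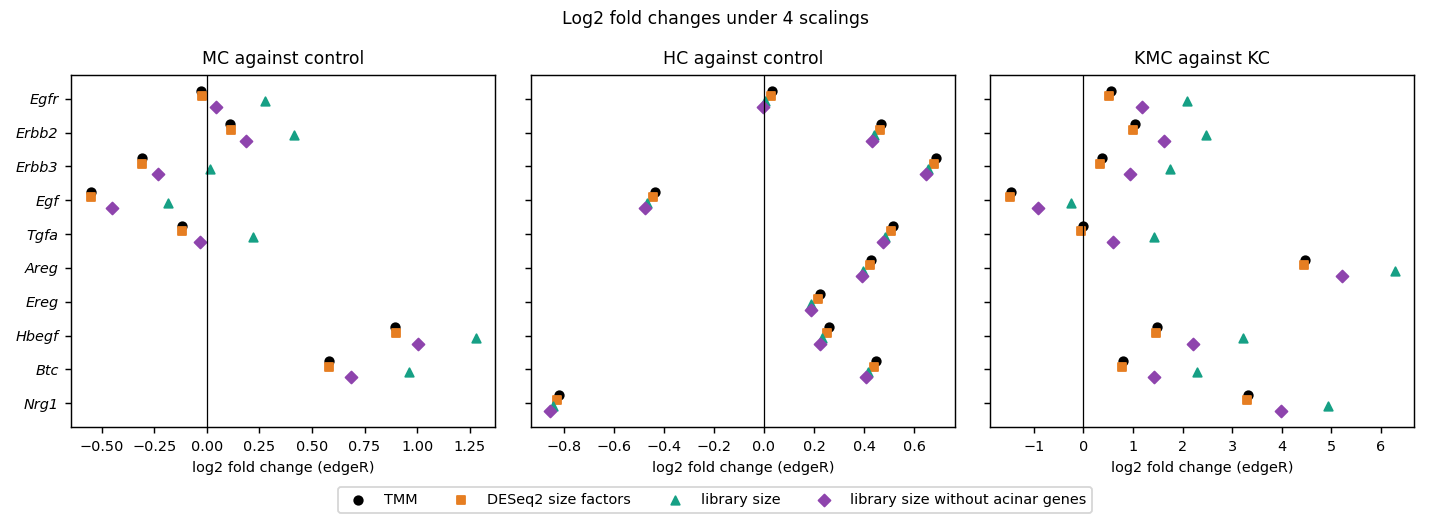
Log2 fold changes of the tested genes (edgeR) under 4 scalings, TMM, DESeq2 size factors, library size, and library size without acinar genes, with a separate horizontal axis in each panel. Scalings nearly coincide in HC, and in KMC library size moves every gene to the right, Tgfa from -0.02 to 1.43.

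Levels of different genes were set side by side as CPM per kb of exon. Erbb3 was highest in both groups of the MC experiment, at 8.71 ± 2.39 in controls and 7.03 ± 0.724 in MC (SD, n = 3), followed by Egfr (3.52 and 3.46) and Erbb2 (2.92 and 3.16), which overlapped each other. Tgfa and Egf came next, Btc and Hbegf were below them, and Areg and Nrg1 were lowest. In control libraries the order from Egfr down to Egf was not separated by the spread between libraries, and in MC that from Egf to Hbegf was not. In the HC experiment Erbb3 also led, at 55.2 ± 3.77 in HC (SD, n = 3) and 34.3 ± 1.09 in controls (SD, n = 2), but Areg was next, at 27.4 ± 5.14 and 20.3 ± 2.72, ahead of Erbb2 at 24 and 17.3. Areg and Erbb2 overlapped in HC and not in controls. Btc, Egfr, Tgfa and Hbegf overlapped from one to the next in HC, at 11.5 to 8.24, and Ereg, Egf and Nrg1 followed at 1.79, 0.294 and 0.122. In the controls of HC, Hbegf and Tgfa alone overlapped as neighbours, at 6.89 and 6.49.

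In KC libraries Egf was highest per kb, at 5.24 ± 0.0863 (SD, n = 2), above Erbb3 at 2.88 ± 1.18, and Ereg had no count. In KMC libraries Erbb3 had the highest mean, at 3.72 ± 0.135 (SD, n = 2), and the 7 genes from Egfr (2.66) to Btc (0.775) overlapped from one to the next. Areg in KMC ranged from 0.243 in KMC 1, below Btc, to 3.87 in KMC 2, above Erbb3 (3.82 in KMC 2). By mean, Egf was the first in KC and the fifth in KMC. In KMC 1 it was at 3.02, below Erbb3 alone (3.63), and in KMC 2 at 0.805, below Btc (0.864). The lowest levels in KMC were of Nrg1 and Ereg, at 0.0948 and 0.0853, which overlapped. Levels set across experiments come from tables scaled separately and were not tested.

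**Figure D5:**
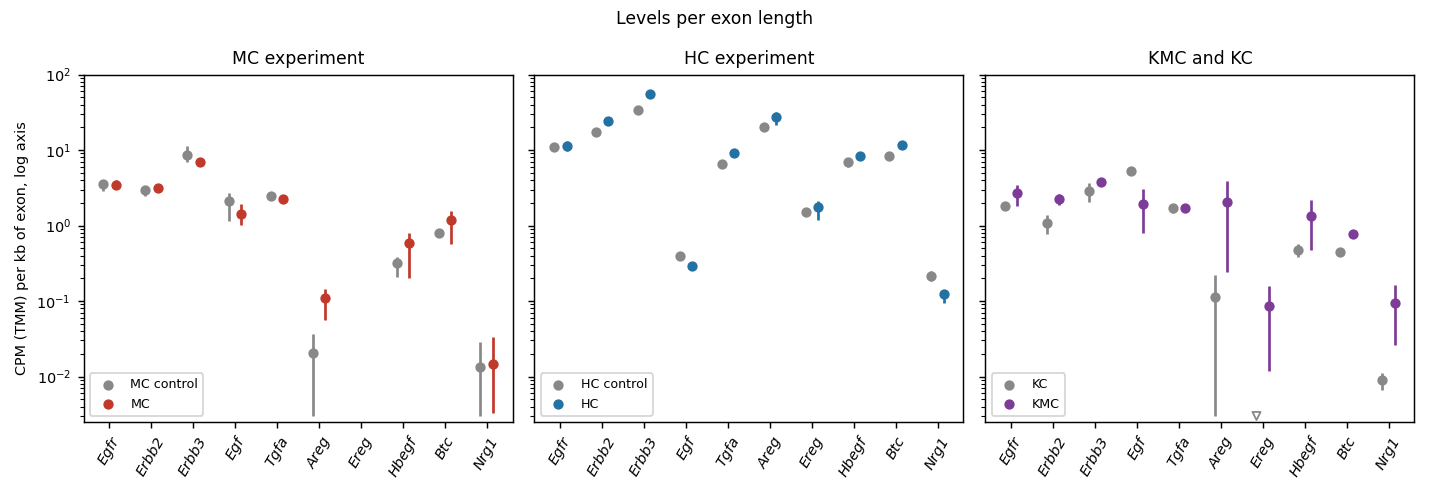
CPM (TMM) per kb of exon of each gene on a log axis, with the mean (point) and the lowest to highest library (bar) per group, the open triangle for a gene with no count, and bars cut at the lower edge where a library had no count. Ereg is not listed in the MC table, Erbb3 has the highest mean in 5 of the 6 groups and Egf in KC.

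Of 42 other genes of the pathway in 5 lists (other receptor and ligand genes, ligand shedding, receptor adaptors, receptor feedback and turnover, and ERK-induced genes), none was differentially expressed by edgeR in any of the 3 experiments. DESeq2 called 0 of them in MC, 1 in HC and 8 in KMC, where it called 3.28%, 3.03% and 13.8% of all genes. In MC 30 of 39 tested genes had a positive log2 fold change, with 5 higher and 2 lower at an unadjusted p under 0.05 (9.2% and 5.46% of all genes). ERK-induced genes made up 14 of these 30, out of 15 tested, at a median of 0.66 beside -0.02 over all genes. Their summed CPM overlapped, at 132 to 279 in MC and 137 to 179 in controls. Of all genes tested, 46.9% had a positive value. The smallest p in MC belonged to Myc, a transcription factor gene and the only ERK-induced gene that was lower. Its log2 fold change was -0.74 (adjusted p = 0.14 by edgeR and 0.016 by DESeq2). Next by edgeR were Dusp5, an ERK phosphatase gene (1.32, adjusted p = 0.261), and Rhbdf2, which encodes a cofactor of the protease ADAM17 (-0.56, adjusted p = 0.279). In HC 14 of 40 tested genes had a positive log2 fold change, beside 49.8% of all genes. At an unadjusted p under 0.05, 3 were higher and 6 lower (8.39% and 7.47% of all genes), and ERK-induced genes had a median of -0.03. The smallest p in HC belonged to Phlda1 (0.70, adjusted p = 0.119 by edgeR), Adam17, the main protease of several ligands (-0.51, adjusted p = 0.139), and Adam12 (-1.32, adjusted p = 0.181).

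In KMC 34 of 40 tested genes had a positive log2 fold change, beside 51.3% of all genes. At an unadjusted p under 0.05, 10 of the 34 were higher (16.1% of all genes) and none was lower (9.48%). The ligand shedding list was higher for 6 of 7 genes, at a median of 0.80 beside 0.03 over all genes, and ERK-induced genes for 14 of 15, at a median of 0.85. The smallest p belonged to the protease genes Adam8 (2.66, adjusted p = 0.0796 by edgeR) and Adam12 (3.71, adjusted p = 0.0796) and to Cbl, whose product marks activated EGFR for degradation (1.69, adjusted p = 0.104). Adam8 is also made by leukocytes and Adam12 by fibroblasts, whose markers were higher in the same libraries, and their part was not tested.

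Genes whose pattern over all 15 libraries was most like each family gene were found by the root mean square difference of log2 CPM, each gene centred within its own experiment, over 13655 genes tested in all 3 experiments. Egfr was nearest to Ski (0.109), Capn1 (0.11) and Vopp1 (0.115), beside a spread of its own of 0.259. For Erbb2 the nearest was Mocos (0.107), for Erbb3 it was Sorl1 (0.149), for Tgfa Rnf103 (0.0819), for Btc Tdrd7 (0.176), for Egf Slc1a3 (0.207), and for Hbegf Junb (0.272). Tgfa varied least among the 7 genes, at 0.186, and Hbegf most, at 0.708.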

How the data were processed

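The authors deposited raw counts of reads per gene, without normalization, in 3 tables. Per the submitters' processing notes, reads were demultiplexed with bcl2fastq 2.17.14, aligned to GRCm38 with STAR 2.6.1a and counted with HTSeq 0.6.1. The MC table lists 15175 genes, and how they were selected is not given in the sources used here. A deposited table of the authors' own DESeq2 comparison holds fold changes and p-values and was not used. Samples were grouped by their labels. The allele shared by KC and KMC mice is not reported here.

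Genes were filtered with filterByExpr, scaled by TMM and tested over each whole table with edgeR 4.0.16 (glmQLFit, glmQLFTest) in R 4.3.3. Called genes had a p of 0.05 or less after Benjamini-Hochberg adjustment and a log2 fold change of 1 or more in size. DESeq2 1.42.0, other scalings and filters, the replicate block and leaving out each library were alternatives. Replicates differed beyond counting noise (chi-square per gene 39.5 to 463), so none was counted as a repeat. The edgeR test was first run on simulated counts. Counting intervals and floors cover counting error only. Intervals of log2 fold changes and of effect differences use the SE of the edgeR fit, which includes the spread between libraries.

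Named genes are the 10 family genes, the 3 of the other pathway genes with the smallest p per experiment, the nearest genes in pattern, and check genes for the labels. Krt19 and Gkn1 were picked from the marker lists after their values were seen. The genes and lists were chosen with earlier results of these data known. The fit over HC, KC and KMC libraries for the difference of KMC and HC effects, and DESeq2 without HC 3, were added after seeing the data. Log2 CPM for patterns used a prior count of 2. Exon lengths are from GENCODE and promoters from RefSeq.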

Additional observations from a re-analysis of the deposited data

Results flagged for a closer look

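Erbb3 was lower in every MC library than the mean of its controls (log2 fold change -0.31), with overlapping groups, and higher in every library labelled HC (0.69). This difference was tested and did not pass in edgeR (adjusted p = 0.0638) but did in DESeq2 (adjusted p = 0.00514). In KMC, Erbb3 was higher in both libraries than the mean of KC (0.37), opposite to MC (-0.31), and this difference was not tested. Tgfa was lower in every MC library than the mean of its controls (-0.12), with overlapping groups, and higher in every library labelled HC (0.51), with an adjusted p of 0.0664 by edgeR and 0.00909 by DESeq2 for the difference. Nrg1 was lower in every library labelled HC (-0.82) and higher in both KMC libraries (3.33). It was taken up for these opposite directions in the same libraries, so the p-value of their difference is not independent support. Experiment, age and transgene differ together between HC and KMC, as do sex and age between KMC and KC, so these cannot be told apart. A joint edgeR fit of these 9 libraries was added after seeing the data. In it the KMC effect minus the HC effect was 4.22 for Areg (adjusted p = 0.1165) and 7.62 for Ereg (adjusted p = 0.1055). For Nrg1 it was 4.19 (SE 1.14, adjusted p = 0.0488), past a threshold that 10.7% of 18681 genes passed together with the fold limit. It was past the threshold without KMC 1 (4.94, adjusted p = 0.0029) and missed it without each of the other 8 libraries (adjusted p 0.0724 to 0.154), with a value of 2.25 without KMC 2.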

How the results depend on the processing

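Of the member values under all alternatives, 495 kept direction and side of the threshold, 17 passed newly, 8 no longer passed (Nrg1 in the joint fit of KMC and HC), and 32 changed sign. Sign changes in MC were of Egfr (0.28 under library size, 0.044 without acinar genes, -0.14 to 0.073 leaving out 1 library), Erbb3 (0.014) and Tgfa (0.22, both under library size). In HC they were of Egfr (-0.003 without acinar genes, -0.087 to 0.13 leaving out 1 library). In KMC they were of Tgfa (0.005 by DESeq2, 1.43 under library size, 0.59 without acinar genes, 0.07 with no filter, 0.006 in 1 fit of 9 libraries, -0.22 to 0.20 leaving out 1 library) and Erbb3 (-0.007 to 0.87). In the difference of MC and HC effects they were of Egfr (0.29 under library size, 0.069 without acinar genes, -0.19 to 0.049), Egf (0.30, 0.048, -0.42 to 0.10), Btc (-0.11 to 0.45) and Nrg1 (-0.58 to 1.95), which was too low to be tested in MC alone.

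Genes called in MC were 479 by DESeq2, 1 under library size and 0 to 718 leaving out 1 library. In HC they were 469 by DESeq2, 51 without acinar genes, 395 with no filter, 1 in the fit of 9 libraries and 0 to 379 leaving out 1 library. In KMC they were 2130, 4714 under library size, 1894, 9, 3230 and 0 to 2312. The difference called 1011 by DESeq2, 98 under library size, 156 without acinar genes and 0 to 1584. Family genes called in KMC were 6 under library size, 3 in the fit of 9 libraries and 0 to 5 leaving out 1 library. The 3 in the fit of 9 libraries were Erbb2, Areg and Nrg1, in a fit that called 3230 of 18681 genes. Areg and Nrg1 had most of their KMC counts in KMC 2 (395 and 142, against 12 and 11 in KMC 1).

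The labels do not say that replicate numbers pair the samples. Same-number correlations of deviations were 0.067, 0.296 and -0.297 in MC, 0.189 and 0.17 in HC and 0.051 and 0.051 in KMC, with fewer than 3 pairs in HC and KMC, so the samples were taken to share a number only. With the replicate block, 339 genes were called in HC, 2464 of 15733 in KMC and 0 in the difference. In that block 1 family gene (Egf, -1.75) was called in KMC, and Btc in the difference was -0.02. With 2 libraries in several groups, leaving 1 out assumes that the lone library varies like the others.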
